A study of Mus musculus with 48 samples.

Results

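Collagens are the structural proteins of the extracellular matrix, and 44 collagen genes were measured in the livers of male p110αhep+/+ and p110αhep-/- mice. The members are every gene whose symbol in the scanner output has the form Col, a number, a and a number. They were represented by 91 probes of the 56605 probes that are not controls, and each gene was followed through the probe with the highest average signal. Of the 44, 25 passed the filter on dim probes, as did 20486 genes of the array in all.

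The mice carried floxed alleles of p110α, the catalytic subunit of a phosphoinositide 3-kinase that relays insulin signals. In the p110αhep-/- mice (LKO in the labels) an albumin-Cre transgene, active in hepatocytes, removed it from those cells, and the floxed p110αhep+/+ mice (LWT) served as controls. From an age of 12 weeks both genotypes received a control (CTRL) diet or a high-fat diet (HFD, 60% of calories from fat) for 12 weeks, and were then killed at Zeitgeber time 16 either fed or after a 24 h fast. The 8 combinations of genotype, diet and state held 6 mice apiece, with 1 one-colour array per liver. The deletion was restricted to hepatocytes, and whole liver RNA also holds the RNA of all other liver cells.

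Collagen chains are made as procollagens, folded in the endoplasmic reticulum, trimmed outside the cell and crosslinked into fibrils or sheets. In the liver, fibrillar collagens come mainly from hepatic stellate cells and portal fibroblasts, and their accumulation is the defining feature of fibrosis. Type IV collagens form the network of basement membranes, and endothelial cells also make them. In bulk RNA, fewer cells of a type and less RNA per cell cannot be told apart.

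The brightest probe was well above background on all 48 arrays for 18 collagen genes and on no array for 6 (Col4a3, Col6a4, Col9a1, Col9a3, Col10a1 and Col15a1). The 25 that passed comprised 6 of 11 fibrillar collagens, 3 of 6 basement membrane chains, 4 of 6 beaded filament chains of type VI, 1 of 3 short chain network collagens, 5 of 9 fibril-associated collagens, 3 of 4 transmembrane collagens, 1 of 2 multiplexins and 2 of 3 others. The 19 that did not pass were Col2a1, Col4a3, Col4a4, Col4a6, Col5a2, Col6a4, Col6a6, Col8a2, Col9a1, Col9a3, Col10a1, Col11a1, Col11a2, Col15a1, Col19a1, Col22a1, Col24a1, Col25a1 and Col28a1. Many of these have their best known roles outside the liver, such as the cartilage collagens Col2a1, Col9a1 and Col11a1. Col6a5, Col12a1 and Col23a1 passed only through the HFD-fed p110αhep+/+ groups, so the filter itself favoured a higher level there. Their differences are given as a description, and counts are also given for the 18 genes above background on every array.

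**Figure D1:**
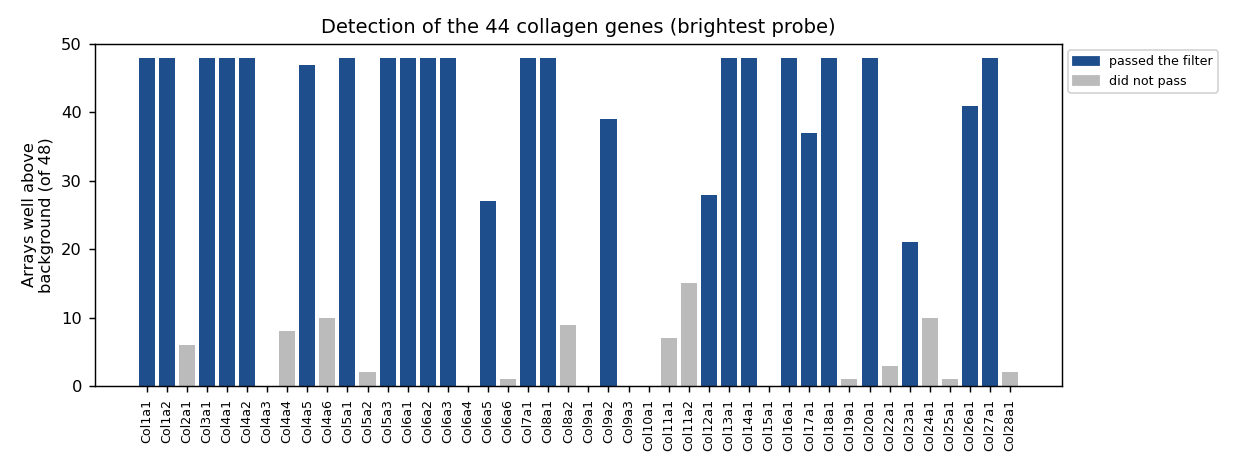
Number of the 48 arrays (vertical axis) on which the brightest probe of each of the 44 collagen genes (horizontal axis) was well above background; dark bars are the 25 genes that passed the filter and grey bars the 19 that did not. The 18 bars at full height include the major fibrillar and basement membrane collagens of the liver.

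Promoter windows in RefSeq (assembly GRCm38.p6, 250 bases before to 50 bases after a start site) were found for 35 of the 44 genes, as 38 entries. Those of Col4a1 and Col4a2 are shown because these 2 genes, which encode the chains of the common type IV collagen, lie head to head. Their start sites are 21 bases apart on opposite strands and their windows share 78 bases, printed in capitals. The Col4a1 window is chr8:11312777-11313076 on the minus strand, and that of Col4a2 is chr8:11312555-11312854 on the plus strand.
Col4a1: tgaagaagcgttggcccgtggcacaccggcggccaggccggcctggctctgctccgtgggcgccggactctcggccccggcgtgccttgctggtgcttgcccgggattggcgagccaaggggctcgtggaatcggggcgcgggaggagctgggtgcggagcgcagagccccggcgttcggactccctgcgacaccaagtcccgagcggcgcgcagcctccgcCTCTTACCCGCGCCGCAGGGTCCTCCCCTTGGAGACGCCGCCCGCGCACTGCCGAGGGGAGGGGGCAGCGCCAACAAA
Col4a2: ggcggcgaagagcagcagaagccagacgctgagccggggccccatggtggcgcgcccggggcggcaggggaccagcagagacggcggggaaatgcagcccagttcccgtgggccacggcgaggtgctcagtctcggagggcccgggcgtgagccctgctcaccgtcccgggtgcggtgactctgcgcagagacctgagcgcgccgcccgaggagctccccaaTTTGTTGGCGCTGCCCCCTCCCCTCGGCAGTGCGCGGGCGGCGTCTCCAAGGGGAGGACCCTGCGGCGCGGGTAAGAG

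The windows of Col1a2 (chr6:4505368-4505667, plus strand) and Col3a1 (chr1:45311288-45311587, plus strand) are shown because these fibrillar genes had some of the largest differences between groups. Capitals mark the motifs searched on either strand, which were CCAAT or TATAAA or GGGCGG.
Col1a2: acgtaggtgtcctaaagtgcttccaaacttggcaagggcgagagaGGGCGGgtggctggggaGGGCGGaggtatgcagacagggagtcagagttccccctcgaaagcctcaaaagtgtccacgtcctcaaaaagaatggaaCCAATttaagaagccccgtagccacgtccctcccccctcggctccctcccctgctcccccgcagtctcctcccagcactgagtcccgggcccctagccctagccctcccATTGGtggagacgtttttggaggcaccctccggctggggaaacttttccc
Col3a1: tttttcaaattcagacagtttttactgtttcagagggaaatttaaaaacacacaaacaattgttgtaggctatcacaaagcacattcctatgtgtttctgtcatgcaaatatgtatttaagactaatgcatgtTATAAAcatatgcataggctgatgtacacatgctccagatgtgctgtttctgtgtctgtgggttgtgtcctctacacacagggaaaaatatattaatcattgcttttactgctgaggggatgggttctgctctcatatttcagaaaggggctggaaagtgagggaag

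Col1a2 held CCAAT at 2 places and GGGCGG at 2, and Col3a1 held 1 TATAAA and neither of the other motifs. Of the 38 collagen entries, 13 held CCAAT, 5 held TATAAA and 23 held GGGCGG. Over all 32851 windows of this length the shares were 37.4%, 13.6% and 35.7%. These matches describe letters in the window only.

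On the arrays, between 52.3% and 59.3% of spots were well above background, and none was saturated. The median spot signal lay between 53 and 71 against a median local background of 22 to 42. The probe for Pik3ca, which encodes p110α, read between 12.58 and 13.45 (log2) over p110αhep+/+ mice and between 13.02 and 13.71 over p110αhep-/- mice. In fed mice on HFD it read 12.58 to 12.99 in p110αhep+/+ and 13.08 to 13.56 in p110αhep-/- mice, and in the other comparisons of genotype the ranges overlapped. Whether this probe lies inside the deleted part could not be checked. It was not lower in the p110αhep-/- mice and so gave no check of the deletion, and genotype is used here as labelled.

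HFD feeding raised most of the collagen genes that passed the filter in p110αhep+/+ livers, and few in p110αhep-/- livers. Calls are adjusted p-values of at most 0.05 in limma. In fed p110αhep+/+ mice HFD changed 19 of the 25, 15 upwards and 4 downwards, where 24.1% of all genes were called (12.4% upwards). In fasted p110αhep+/+ mice it changed 17, 13 upwards and 4 downwards, against 15.9% of all genes (8.96% upwards). The same 13 genes rose in both states. Col6a5 and Col12a1 are in the first of these counts and Col12a1 in the others, with a direction that the filter favoured. Among the 18 genes above background on every array, 12 rose and 3 fell in each state, where 4734 and 3025 of 17167 genes were called. In p110αhep-/- mice HFD changed 4 when fed, 2 in each direction, and 1 when fasted, against 12.2% and 10.8% of all genes, and these counts were the same among the 18. The median log2 fold change over the 25 was 0.385 and 0.433 in fed and fasted p110αhep+/+ mice and 0.022 and 0.047 in p110αhep-/- mice, while that of all genes lay between -0.018 and -0.001. Over all 44 collagen genes without a filter the medians were 0.001 and 0.059 in p110αhep+/+ mice and 0.030 and 0.041 in p110αhep-/- mice, so the difference between genotypes in these medians held only over the genes that passed the filter. All 19 and 17 calls in p110αhep+/+ mice had the same direction within both washing batches, of 3 mice per group each. The same mice gave the calls, so this describes them and is no separate test.

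**Figure D2:**
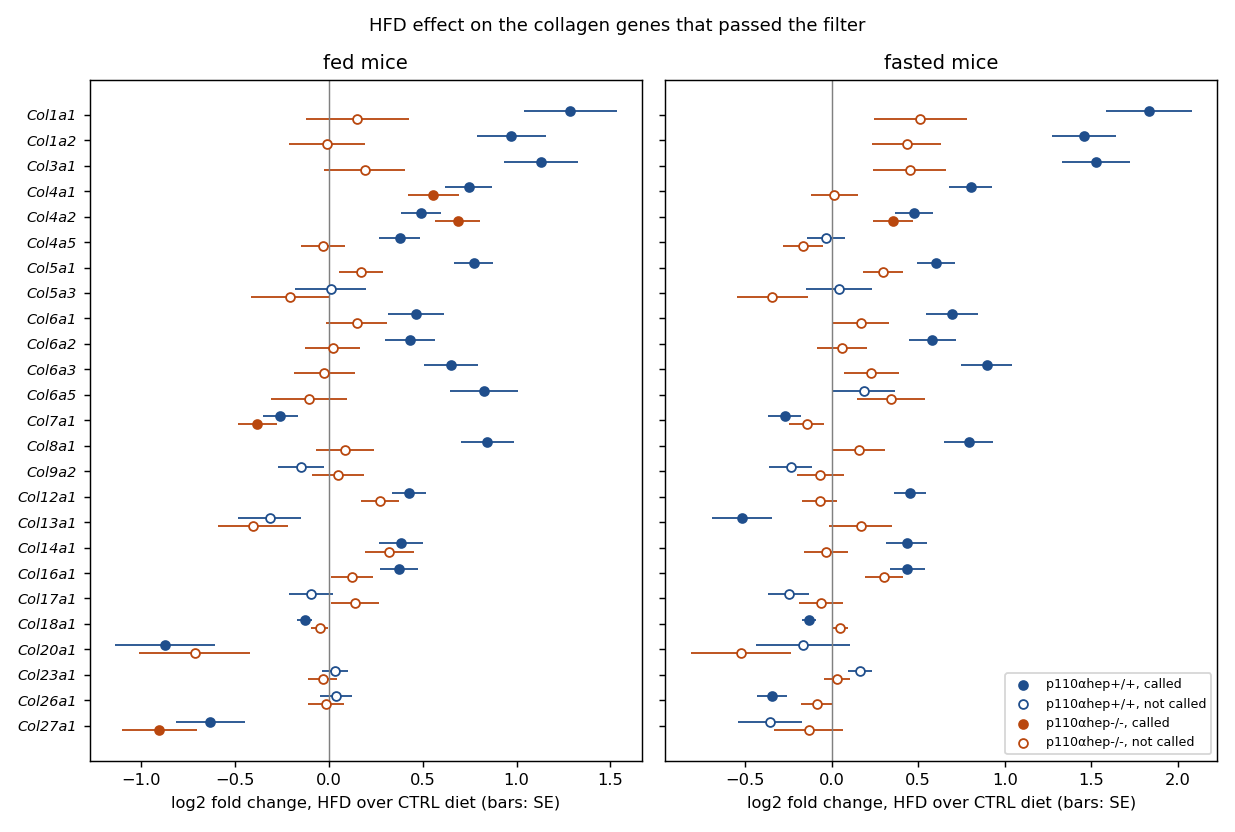
Log2 fold change of HFD over CTRL diet (horizontal axis, bars are SE) for the 25 collagen genes that passed the filter, in fed mice (left) and fasted mice (right), 6 mice per group; filled symbols were called by limma. In p110αhep+/+ mice (blue) 15 and 13 genes were higher on HFD, and in p110αhep-/- mice (orange) 2 and 1 were.

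On HFD, most of the collagen genes that passed the filter were lower in p110αhep-/- than in p110αhep+/+ livers, and few were higher. Of the 25 genes, 17 differed between genotypes in fed mice, 16 of them lower in p110αhep-/- mice, and 19 in fasted mice, again 16 lower. Over all genes 32.9% (16.3% lower) and 36.8% (17.7% lower) were called. 14 collagen genes were lower in both states. Col12a1 and Col23a1 are in each of these counts of lower genes and Col6a5 in that of fed mice, with a direction that the filter favoured. Col18a1 was higher when fed, and Col7a1, Col13a1 and Col20a1 when fasted. Over all 44 collagen genes without a filter the median log2 fold changes were -0.043 and -0.056, with 19 and 17 genes above 0. Among the 18 genes above background on every array, 13 were called in fed mice (12 lower) and 17 in fasted mice (14 lower). There 6179 and 6946 of 17167 genes were called in either direction. On CTRL diet 1 gene differed in fed mice, against 21.5% of all genes, and 7 in fasted mice, 6 of them lower, against 24.8% (12.3% lower). The HFD comparisons of p110αhep+/+ mice and those of genotype on HFD share the HFD-fed p110αhep+/+ livers, so each is given with its own values.

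Fasting lowered 6 of the 25 genes and raised 2 in p110αhep+/+ mice on CTRL diet, and lowered 6 and raised 1 on HFD. In p110αhep-/- mice it lowered 10 and raised 1 on CTRL diet, and lowered 7 and raised 2 on HFD. Over all genes 32.5%, 28.4%, 35.4% and 28.5% were called in these comparisons (16.5%, 14.7%, 19.1% and 14.6% lower). In p110αhep+/+ mice the share of collagen genes called in either direction was near that of all genes. The 6 lowered in p110αhep+/+ mice on HFD include the dim Col6a5, which passed the filter only through the groups compared there. Among the 18 genes above background on every array, 7 and 5 were called in p110αhep+/+ mice (CTRL diet and HFD) and 11 and 9 in p110αhep-/- mice. Of these, 6, 4, 10 and 7 were lower. In the same order 6389, 5668, 6861 and 5550 of 17167 genes were called in either direction. Col5a3, Col8a1 and Col27a1 fell in all 4 comparisons.

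Col1a1 and Col1a2 encode the chains of type I collagen, the most abundant fibrillar collagen, and Col3a1 that of type III, which copolymerizes with it. With the main processing they had the largest HFD responses of the 25 genes in p110αhep+/+ mice. Under alternatives of the processing, the values of Col6a5 and Col20a1 in fed p110αhep+/+ mice reached 1.63 and -1.49. The values that follow are the lowest, median and highest normalized log2 signal of 6 mice. The Col1a1 probe, at mm9 chr11:94813115-94813174, read 7.92, 9.07 and 9.34 in fed p110αhep+/+ mice on CTRL diet and 9.86, 10.16 and 10.65 on HFD. In fed p110αhep-/- mice Col1a1 read 7.73, 8.08 and 8.72 on CTRL diet and 7.47, 8.31 and 9.22 on HFD. Every fed p110αhep+/+ mouse on HFD lay above every mouse of the other 3 fed groups. After fasting, Col1a1 read 7.57, 7.86 and 8.80 and then 8.65, 9.95 and 10.55 on CTRL diet and HFD in p110αhep+/+ mice, and 6.62, 6.997 and 7.36 and then 6.77, 7.68 and 8.04 in p110αhep-/- mice. Of the fasted p110αhep+/+ mice on HFD, 1 lay below the highest of their controls, and all 6 lay above all fasted p110αhep-/- mice. HFD raised Col1a1 in p110αhep+/+ mice by 1.29 ± 0.25 when fed (log2 fold change ± SE, 2.44-fold, adjusted p = 0.000152) and by 1.83 ± 0.25 when fasted (3.56-fold, adjusted p = 1.98e-06). Within the 2 washing batches the differences of group means were 1.39 and 1.33 when fed and 2.01 and 1.42 when fasted. In p110αhep-/- mice the values were 0.15 ± 0.27 (adjusted p = 0.809) and 0.51 ± 0.27 (adjusted p = 0.244), and the fed value differed in sign between batches, -0.28 and 0.82. On HFD, Col1a1 was lower in p110αhep-/- than in p110αhep+/+ mice by -1.79 ± 0.26 when fed and -2.32 ± 0.27 when fasted (adjusted p = 8.08e-07 and 7.56e-09). On CTRL diet it was lower by -0.99 ± 0.25 when fasted (adjusted p = 0.00273), and the fed value was -0.65 ± 0.26 (adjusted p = 0.0695).

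Col1a2, probed at mm9 chr6:4490619-4490678, resembled Col1a1 in its response to HFD. In fed p110αhep+/+ mice it read 10.28, 11.04 and 11.44 on CTRL diet and 11.59, 11.89 and 12.43 on HFD, and in fed p110αhep-/- mice 10.45, 10.70 and 11.21 and then 10.40, 10.70 and 11.54. In fasted p110αhep+/+ mice Col1a2 read 10.09, 10.29 and 11.03 and then 11.11, 11.90 and 12.46, and in fasted p110αhep-/- mice 9.47, 10.06 and 10.30 and then 10.002, 10.57 and 10.78. No p110αhep+/+ mouse on HFD overlapped its control group or the p110αhep-/- mice on HFD of the same state. The HFD effect on Col1a2 was 0.97 ± 0.18 and 1.46 ± 0.19 in fed and fasted p110αhep+/+ mice (adjusted p = 0.000117 and 6.7e-07) and -0.01 ± 0.20 and 0.43 ± 0.20 in p110αhep-/- mice (adjusted p = 0.989 and 0.172). The genotype difference on HFD was -1.09 ± 0.19 and -1.41 ± 0.20. Unlike Col1a1, Col1a2 was not called between genotypes in fasted mice on CTRL diet (-0.39 ± 0.19, adjusted p = 0.127) or with fasting in p110αhep-/- mice on HFD (-0.33 ± 0.21, adjusted p = 0.27). The further Col1a2 probe was called in 4 of the 6 comparisons in which the brightest was, in the same direction.

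Col3a1, probed at mm9 chr1:45405589-45405648, read 9.79, 10.85 and 11.19 in fed p110αhep+/+ mice on CTRL diet and 11.41, 11.82 and 12.14 on HFD, and 9.86, 10.30 and 10.78 and then 10.06, 10.57 and 11.07 in fed p110αhep-/- mice. In fasted p110αhep+/+ mice it read 9.47, 9.68 and 10.17 and then 10.23, 11.38 and 11.78, and in fasted p110αhep-/- mice 8.62, 8.90 and 9.07 and then 8.85, 9.43 and 9.75. Fasted p110αhep-/- mice on CTRL diet were the lowest group, below every mouse of all fed groups. HFD raised Col3a1 by 1.13 ± 0.19 and 1.53 ± 0.20 in fed and fasted p110αhep+/+ mice (adjusted p = 3.06e-05 and 7.84e-07), against 0.19 ± 0.21 and 0.45 ± 0.21 in p110αhep-/- mice, neither called. Fasting lowered Col3a1 by -0.89 ± 0.20 in p110αhep+/+ and -1.48 ± 0.20 in p110αhep-/- mice on CTRL diet and by -1.22 ± 0.22 in p110αhep-/- mice on HFD, and its value in p110αhep+/+ mice on HFD was -0.49 ± 0.19 (adjusted p = 0.0549). The 2 dimmer Col3a1 probes had HFD values of -0.01 and 0.01 in fed p110αhep+/+ mice, where the brightest was called, so they did not show that rise. In contrast, both further Col1a1 probes were called in all 8 comparisons in which its brightest probe was.

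**Figure D3:**
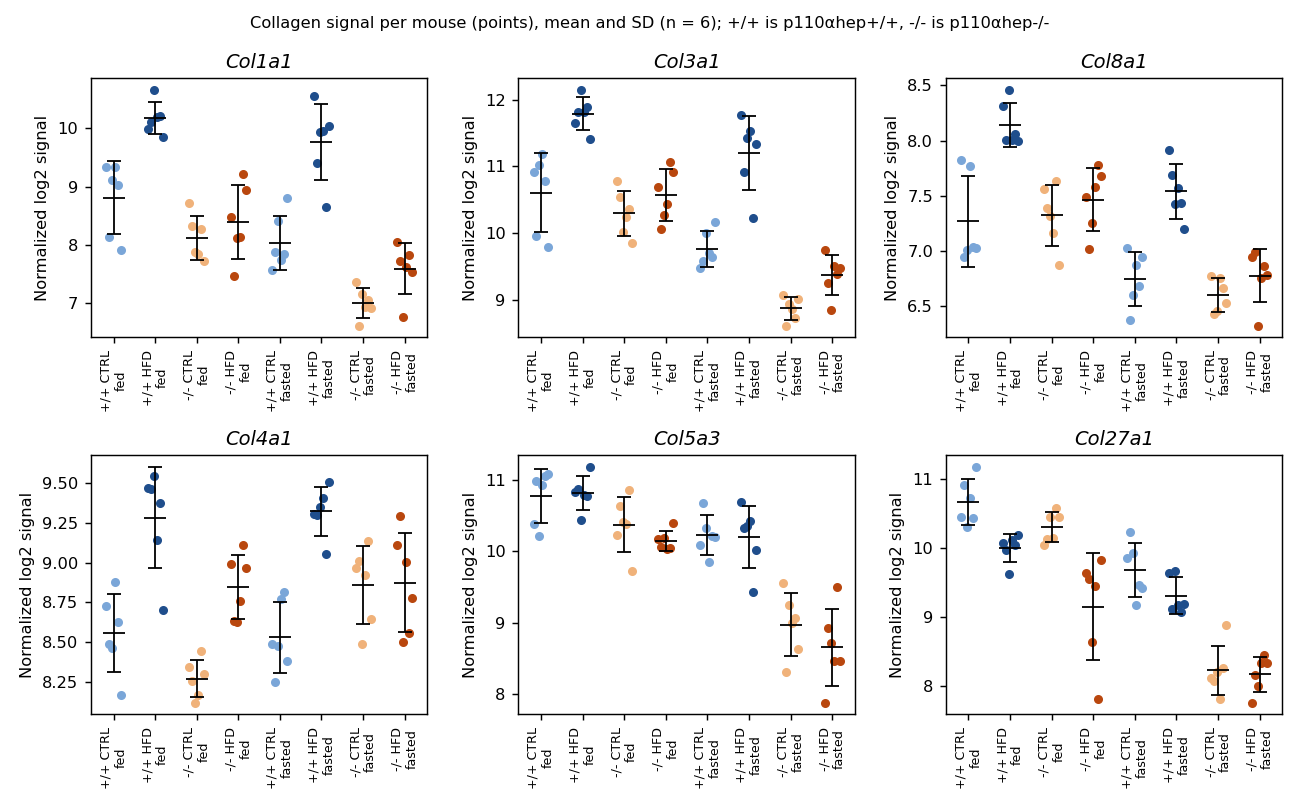
Normalized log2 signal (vertical axis) of 6 collagen genes in each mouse (points) of the 8 groups (horizontal axis), with the mean and SD of 6 mice. Col1a1, Col3a1 and Col8a1 were highest in HFD-fed p110αhep+/+ mice, Col4a1 also rose on HFD in fed p110αhep-/- mice, and Col5a3 and Col27a1 were lowest in fasted p110αhep-/- mice.

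The other fibrillar members differed among themselves. Col5a1, a chain of type V collagen that nucleates type I fibrils, read 7.61, 7.95 and 8.15 in fed p110αhep+/+ mice on CTRL diet and 8.60, 8.67 and 9.03 on HFD, and 7.81, 8.002 and 8.26 and then 7.98, 8.28 and 8.45 in fed p110αhep-/- mice. In fasted mice Col5a1 read 7.47, 7.83 and 8.02 and then 7.82, 8.36 and 8.77 in p110αhep+/+ mice, and 7.27, 7.52 and 7.82 and then 7.68, 7.90 and 8.06 in p110αhep-/- mice. The fed p110αhep+/+ mice on HFD lay above all other fed mice. HFD raised Col5a1 by 0.77 ± 0.11 and 0.60 ± 0.11 in fed and fasted p110αhep+/+ mice (adjusted p = 7.78e-07 and 0.000122), and its values in p110αhep-/- mice were 0.17 ± 0.12 and 0.30 ± 0.12, neither called.

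Col5a3, another type V chain, did not follow the diet. It read 10.22, 10.97 and 11.09 in fed p110αhep+/+ mice on CTRL diet and 10.44, 10.81 and 11.18 on HFD, and 9.72, 10.40 and 10.86 and then 10.03, 10.12 and 10.39 in fed p110αhep-/- mice. After fasting, Col5a3 read 9.85, 10.21 and 10.69 and then 9.43, 10.34 and 10.69 in p110αhep+/+ mice, and 8.31, 9.03 and 9.56 and then 7.88, 8.59 and 9.501 in p110αhep-/- mice. The fasted p110αhep-/- mice lay below all fed mice of their genotype. The HFD effect on Col5a3 lay between -0.34 and 0.04 in the 4 comparisons and was called in none. Fasting lowered it by -0.60 ± 0.19 and -0.57 ± 0.19 in p110αhep+/+ mice (CTRL diet and HFD) and by -1.38 ± 0.20 and -1.51 ± 0.22 in p110αhep-/- mice. The genotype by nutritional state interaction for Col5a3 was -0.78 ± 0.28 on CTRL diet and -0.95 ± 0.29 on HFD (adjusted p = 0.101 and 0.0547), so these fasting effects were not shown to differ between genotypes.

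In p110αhep+/+ mice Col1a1, Col1a2, Col3a1 and Col5a1 rose on HFD, whereas Col27a1, a fibrillar collagen best known from cartilage, fell in the fed mice. It read 10.30, 10.59 and 11.17 in fed p110αhep+/+ mice on CTRL diet and 9.62, 10.06 and 10.19 on HFD, and 10.04, 10.30 and 10.57 and then 7.80, 9.49 and 9.82 in fed p110αhep-/- mice. In fasted mice Col27a1 read 9.18, 9.65 and 10.23 and then 9.07, 9.18 and 9.66 in p110αhep+/+ mice, and 7.81, 8.15 and 8.88 and then 7.75, 8.24 and 8.44 in p110αhep-/- mice. HFD lowered it in fed mice of both genotypes without overlap, by -0.63 ± 0.18 in p110αhep+/+ mice (adjusted p = 0.0103) and -0.90 ± 0.20 in p110αhep-/- mice (adjusted p = 0.00181). The lowest fed p110αhep-/- mouse on HFD, replicate 3, also had the lowest array weight of all (0.354), and without it the value was -0.78 and still called. Fasting lowered Col27a1 in all 4 comparisons, by -0.97 ± 0.19 and -0.70 ± 0.18 in p110αhep+/+ mice and by -1.97 ± 0.19 and -1.20 ± 0.21 in p110αhep-/- mice. On CTRL diet the fasting effect differed between genotypes by -0.9997 ± 0.27 (interaction, adjusted p = 0.0255). The further Col27a1 probe shared 5 of the 9 calls. It fell with fasting in all 4 comparisons and on HFD in fed p110αhep+/+ mice (-1.16), but its HFD value in fed p110αhep-/- mice was -0.36 (adjusted p = 0.51) and it was called in none of the 3 genotype comparisons in which the brightest probe was. It was instead called lower in fed p110αhep-/- mice on CTRL diet (-0.99, adjusted p = 0.0081), where the brightest probe was not. On CTRL diet its fasting values were -1.88 in p110αhep+/+ and -1.35 in p110αhep-/- mice, the opposite order to the brightest probe.

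The basement membrane genes Col4a1 and Col4a2 were the only members called higher on HFD in p110αhep-/- mice. Col4a1, probed at mm9 chr8:11199009-11199068, read 8.16, 8.55 and 8.87 in fed p110αhep+/+ mice on CTRL diet and 8.70, 9.42 and 9.55 on HFD, and 8.12, 8.28 and 8.44 and then 8.63, 8.86 and 9.11 in fed p110αhep-/- mice. In fasted mice Col4a1 read 8.25, 8.48 and 8.81 and then 9.06, 9.33 and 9.51 in p110αhep+/+ mice, and 8.49, 8.95 and 9.14 and then 8.50, 8.89 and 9.29 in p110αhep-/- mice. The fed p110αhep-/- groups did not overlap, whereas the fasted ones overlapped almost wholly. HFD raised Col4a1 by 0.75 ± 0.12 and 0.80 ± 0.13 in fed and fasted p110αhep+/+ mice, and by 0.56 ± 0.14 in fed p110αhep-/- mice (adjusted p = 0.00455). In fasted p110αhep-/- mice its value was 0.01 ± 0.14. With fasting, Col4a1 rose in p110αhep-/- mice on CTRL diet by 0.55 ± 0.13 (adjusted p = 0.000794). Its diet by nutritional state interaction in p110αhep-/- mice was -0.54 ± 0.19 (adjusted p = 0.0766). The HFD effects in fed and fasted p110αhep-/- mice were thus not shown to differ.

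Col4a2 read 9.14, 9.22 and 9.57 in fed p110αhep+/+ mice on CTRL diet and 9.57, 9.79 and 9.96 on HFD, and 8.62, 8.81 and 9.10 and then 9.08, 9.53 and 9.78 in fed p110αhep-/- mice. In fasted mice it read 8.75, 9.16 and 9.40 and then 9.29, 9.62 and 9.91 in p110αhep+/+ mice, and 8.77, 8.89 and 9.21 and then 9.12, 9.17 and 9.69 in p110αhep-/- mice. HFD raised Col4a2 in all 4 comparisons, by 0.49 ± 0.11 and 0.48 ± 0.11 in p110αhep+/+ mice and by 0.69 ± 0.12 and 0.35 ± 0.12 in p110αhep-/- mice (fed and fasted). The last had an adjusted p of 0.0439, which rose above 0.05 under 5 alternatives of the processing. By its brightest probe Col4a2 was also the 1 member lower in fed p110αhep-/- mice on CTRL diet, by -0.49 ± 0.11 without overlap (adjusted p = 0.00159). Col4a5, a chain of the type IV network of certain basement membranes, had medians of 5.98, 6.30, 5.94 and 5.98 in the 4 fed groups (p110αhep+/+ on CTRL diet and HFD, then p110αhep-/-) and 5.98, 5.99, 6.05 and 5.92 in the fasted groups. On HFD it was called higher in fed p110αhep+/+ mice, by 0.38 ± 0.11 (adjusted p = 0.00929, and between 0.24 and 0.61 over 10 alternatives). No other HFD comparison of Col4a5 was called. Its genotype by diet interaction in fed mice was -0.41 ± 0.16 (adjusted p = 0.163), so the HFD effect was not shown to differ between genotypes.

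Of the chains of type VI collagen, which forms beaded microfibrils around cells, Col6a1, Col6a2 and Col6a3 rose on HFD in fed and fasted p110αhep+/+ mice by their brightest probes, and Col6a5 was called in fed mice only. In the order just given, Col6a1 had medians of 9.69, 10.12, 9.77 and 9.83 in fed and 9.48, 10.25, 9.45 and 9.77 in fasted mice. Col6a2 had medians of 6.64, 7.03, 6.60 and 6.65 and then 6.27, 6.87, 6.23 and 6.41, and Col6a3 8.74, 9.33, 8.54 and 8.56 and then 8.32, 9.21, 8.10 and 8.40. For each of the 3 chains the highest median of either state was that of the p110αhep+/+ mice on HFD. The HFD effects in fed and fasted p110αhep+/+ mice were 0.46 ± 0.15 and 0.70 ± 0.15 for Col6a1, 0.43 ± 0.13 and 0.58 ± 0.13 for Col6a2, and 0.65 ± 0.15 and 0.89 ± 0.15 for Col6a3. In p110αhep-/- mice the 3 chains had values between -0.02 and 0.23, none called. Col6a3 was lower in p110αhep-/- mice on HFD by -0.79 ± 0.15 and -0.93 ± 0.16 (fed and fasted). Of the further probes for Col6a2 and Col6a3, 1 of each gene was called in no comparison. Col6a5, well above background on 27 arrays, had medians of 5.34, 6.07, 5.65 and 5.72 and then 5.33, 5.70, 5.37 and 5.87.

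Col8a1, a short chain collagen of vessel walls and scar tissue, had one of the clearest separations. It read 6.94, 7.03 and 7.83 in fed p110αhep+/+ mice on CTRL diet and 7.99, 8.03 and 8.46 on HFD, and 6.87, 7.35 and 7.63 and then 7.02, 7.53 and 7.78 in fed p110αhep-/- mice. In fasted mice Col8a1 read 6.37, 6.78 and 7.03 and then 7.20, 7.50 and 7.91 in p110αhep+/+ mice, and 6.43, 6.60 and 6.78 and then 6.32, 6.82 and 6.99 in p110αhep-/- mice. In each state every p110αhep+/+ mouse on HFD lay above all others. HFD raised it by 0.85 ± 0.14 and 0.79 ± 0.14 in p110αhep+/+ mice (adjusted p = 1.67e-05 and 0.000127), and its values in p110αhep-/- mice were 0.09 ± 0.15 and 0.16 ± 0.15, neither called.

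Among the fibril-associated collagens, which decorate the surface of fibrils, Col14a1 and Col16a1 rose on HFD in p110αhep+/+ mice. Col14a1 had medians of 7.89, 8.29, 7.90 and 8.24 in fed and 7.73, 8.16, 7.55 and 7.52 in fasted mice, and HFD effects of 0.39 ± 0.12 and 0.43 ± 0.12 in p110αhep+/+ mice. Col16a1 had medians of 9.14, 9.51, 8.95 and 9.06 and then 8.91, 9.34, 8.46 and 8.86, and HFD effects of 0.37 ± 0.10 and 0.44 ± 0.10. Between genotypes on HFD, Col14a1 was not called in fed mice (-0.04 ± 0.12, adjusted p = 0.822), and in fasted mice it was lower in p110αhep-/- mice by -0.55 ± 0.13. Its genotype by nutritional state interaction on HFD was -0.50 ± 0.18 (adjusted p = 0.116), so these values were not shown to differ. Col12a1, dim and above background on 28 arrays, had medians of 5.61, 6.14, 5.49 and 5.62 and then 5.59, 6.04, 5.58 and 5.55. Col20a1 had medians of 6.89, 5.82, 7.20 and 6.21 and then 6.37, 6.21, 7.44 and 6.90, with the highest in fasted p110αhep-/- mice on CTRL diet. It was lower on HFD in fed p110αhep+/+ mice by -0.87 ± 0.27 (adjusted p = 0.0155, and between -0.62 and -1.49 over 11 alternatives), and higher in fasted p110αhep-/- than p110αhep+/+ mice by 1.16 ± 0.27 on CTRL diet and 0.80 ± 0.29 on HFD. Col9a2 was called in no comparison.

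The remaining members showed small or isolated differences. Col13a1, a transmembrane collagen, had medians of 8.79, 8.20, 8.76 and 8.40 in fed and 8.55, 7.94, 8.98 and 9.11 in fasted mice, and in fasted mice on HFD it was higher in p110αhep-/- mice by 1.06 ± 0.18 (adjusted p = 1.53e-05). Only 1 of its 2 further probes was called there, with 0.47. Col7a1, the anchoring fibril collagen of skin, had medians of 6.52, 6.28, 6.82 and 6.34 and then 6.45, 6.25, 6.70 and 6.48. On HFD it was lower in fed p110αhep-/- mice by -0.38 ± 0.10, and in fed and fasted p110αhep+/+ mice by -0.26 and -0.27. The calls in p110αhep+/+ mice were lost under 6 and 8 of 11 alternatives. Its genotype by diet interaction in fed mice was -0.12 ± 0.14 (adjusted p = 0.717). Col18a1, a multiplexin of basement membranes that hepatocytes also make and the source of endostatin, had medians between 15.90 and 16.16 in the 8 groups. Its differences were called in 6 comparisons and none exceeded 0.13 in size, though the processed signal gave -0.29 for HFD in fasted p110αhep+/+ mice. Col26a1 and Col23a1 were called in 2 comparisons each, and Col17a1 in none.

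**Figure D4:**
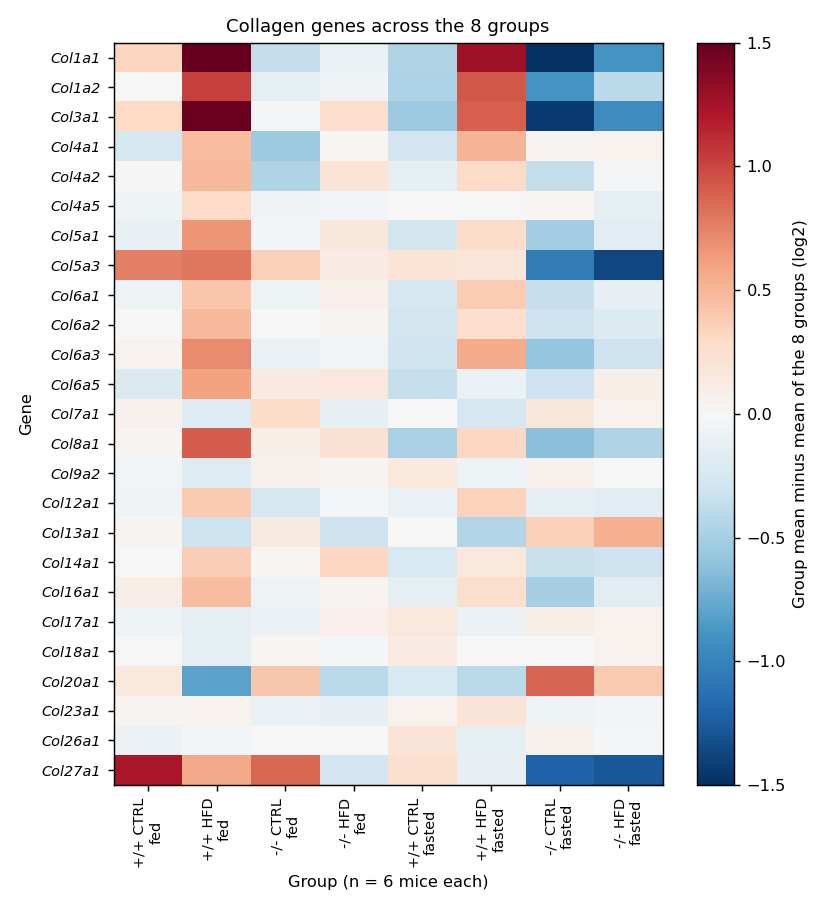
Mean normalized log2 signal of each of the 25 collagen genes that passed the filter (rows) in the 8 groups (columns, 6 mice each), as the difference from the mean of the 8 groups; red is higher and blue lower, and differences beyond 1.5 have the end colours. The red columns of HFD-fed p110αhep+/+ mice and the blue columns of fasted p110αhep-/- mice carry the largest differences, and Col20a1 is among the genes highest in fasted p110αhep-/- mice.

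Whether the HFD response differed between genotypes was tested by the interaction of genotype and diet. It was negative, a smaller HFD effect in p110αhep-/- mice, for 3 genes in fed mice, Col1a2 (-0.98 ± 0.27, adjusted p = 0.0414), Col5a1 (-0.60 ± 0.16, adjusted p = 0.0299) and Col8a1 (-0.76 ± 0.21, adjusted p = 0.0381), where 2.83% of all genes were called. These 3 calls lay near the threshold and held in 4, 7 and 5 of 11 alternatives of the processing, with adjusted p-values up to 0.105, 0.0714 and 0.0851. In fasted mice it was called for 5 genes, against 4.96% of all genes. These were Col1a1 (-1.32 ± 0.37, adjusted p = 0.0293), Col1a2 (-1.02 ± 0.27, adjusted p = 0.0236), Col3a1 (-1.08 ± 0.29, adjusted p = 0.0241), Col4a1 (-0.79 ± 0.18, adjusted p = 0.00944) and Col12a1 (-0.52 ± 0.14, adjusted p = 0.0206), the last with a sign that the filter favoured. The first 4 held in 8, 9, 9 and 11 of 11 alternatives, and Col12a1 in 8 of 10, with sizes from -0.34 to -1.39. In fed mice the values of Col1a1 and Col3a1 were -1.13 ± 0.37 and -0.94 ± 0.29 (adjusted p = 0.0835 and 0.0681) and did not pass. That of Col4a2 was 0.19 ± 0.16 in fed and -0.12 ± 0.16 in fasted mice. For fasting, limma called a difference between genotypes for 1 of the 25 genes on each diet, near the share of all genes (3.92% and 3.37%). These were Col27a1 on CTRL diet and Col13a1 on HFD (0.9975 ± 0.26, adjusted p = 0.0206). Each held in 9 of 11 alternatives, with adjusted p-values up to 0.0696 and 0.0626. The further Col27a1 probe had the opposite order of fasting values between genotypes. For diet by state limma called 0 collagen genes in either genotype (2.36% and 7.9% of all genes in p110αhep+/+ and p110αhep-/- mice), where 3 and 4 had an unadjusted p under 0.05. In all, 9 of the 25, Col12a1 included, were called in at least 1 of the 6 interactions, against 18% of all genes, and this count fell to 1 (Col4a1) without the filter on dim probes and to 3 without array weights.

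Within groups, mice with more Col1a1 mRNA also had more of the other type I and type III chains. Over the deviations of the 48 mice from their group means, Col1a1 correlated with Col1a2 at r = 0.930 (rho = 0.915) and with Col3a1 at r = 0.945 (rho = 0.932), and Col6a1 with Col6a2 at r = 0.803 (rho = 0.772). Each of these 3 had a permutation p of 1e-05 by either measure, the smallest that the permutations can give, and 1.67e-05 adjusted over 5 pairs. Without the 2 mice farthest from the median of the first gene, r was 0.923, 0.935 and 0.760. Within the 2 washing batches r lay at 0.911 and 0.951, 0.960 and 0.932, and 0.816 and 0.795.

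For Col4a1 and Col4a2, which share the promoter region printed above, r was 0.275 (rho = 0.321), with a permutation p of 0.0583 for r (0.0729 adjusted) and 0.027 for rho (0.0338 adjusted), 0.210 without the 2 farthest mice, and 0.316 and 0.243 within batches. Col1a1 and Col18a1 had r = -0.020 and rho = 0.008 (permutation p = 0.892 and 0.959, adjusted p = 0.892 and 0.959), 0.083 without the 2 farthest mice and -0.010 and -0.034 within batches.

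**Figure D5:**
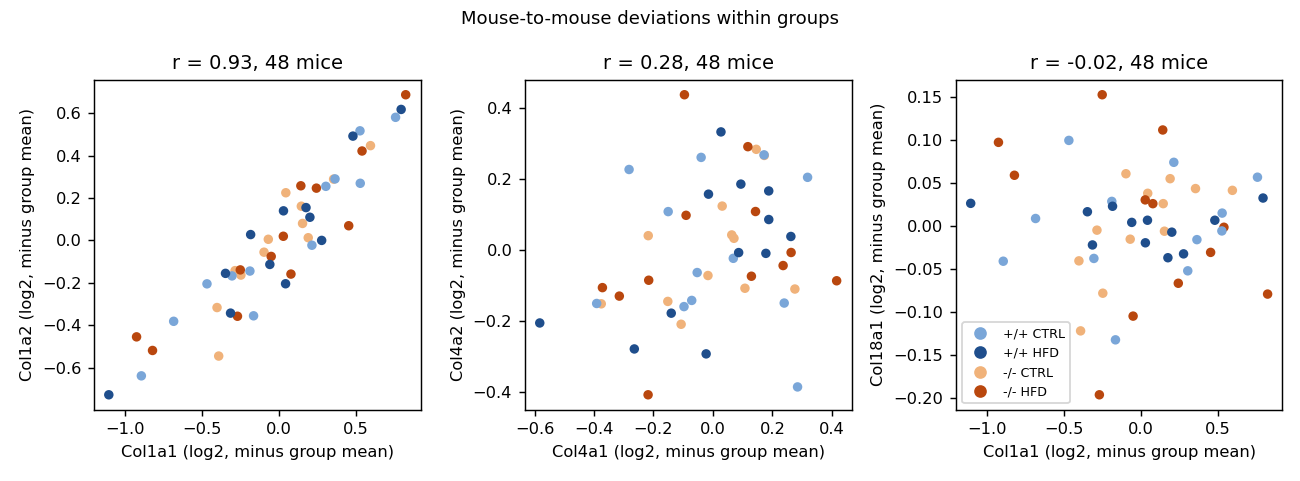
Deviation of each mouse from its group mean (log2) for pairs of collagen genes: Col1a2 against Col1a1 (left), Col4a2 against Col4a1 (middle) and Col18a1 against Col1a1 (right), with 48 mice coloured by genotype and diet. The points of the type I pair fall along a line (r = 0.93), and those of the other pairs are scattered (r = 0.28 and -0.02).

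Genes that fold, process and bind collagen were examined as lists. The same filter on dim probes applied to them and to the cell markers below. Through which groups each of these genes passed was not examined. Of 17 genes for collagen modification and folding, 3 rose and 3 fell on HFD in fed p110αhep+/+ mice, where 24.1% of all genes were called (12.4% higher). Those that rose most were Fkbp10, a procollagen chaperone (0.67 ± 0.14), and Serpinh1, the collagen chaperone HSP47 (0.59 ± 0.12). Fasting lowered Serpinh1 in all 4 comparisons, by -0.55, -0.56, -1.03 and -0.81 (p110αhep+/+ on CTRL diet and HFD, then p110αhep-/-). Of 11 genes for procollagen processing and crosslinking, 5 rose and 0 fell, among them Pcolce, which enhances removal of the C-propeptide (0.59 ± 0.10), and the lysyl oxidase-like Loxl2 (0.56 ± 0.12). Loxl2 also rose on HFD in p110αhep-/- mice, by 1.03 ± 0.13 when fed and 0.56 ± 0.13 when fasted. Lox itself did not pass the filter. Of 10 genes for collagen degradation and its inhibitors, 3 rose and 0 fell, Mmp12 (0.62 ± 0.14), Mmp2 (0.38 ± 0.14) and Timp1 (0.38 ± 0.09). Of 8 collagen receptors, 3 rose and 0 fell, led by the integrin chain Itga11 (0.44 ± 0.13). Of 17 genes of profibrotic signalling, 7 rose and 1 fell, among them Thbs1 (1.06 ± 0.14) and Ctgf (0.99 ± 0.31), and Tgfb1 had a value of 0.03 ± 0.10 (adjusted p = 0.869).

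In fed p110αhep-/- mice on HFD against p110αhep+/+ mice, the same 5 lists had 3 higher and 3 lower, 2 higher and 4 lower, 1 higher and 5 lower, 1 higher and 3 lower, and 1 higher and 10 lower, where 32.9% of all genes were called (16.3% lower). The last included Thbs1 (-1.01 ± 0.14). Their medians were -0.008, -0.131, -0.286, 0.048 and -0.297, beside 0.031 over all genes.

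Markers of the cells that make collagen differed in how they moved, in a comparison (HFD in fed p110αhep+/+ mice) where 24.1% of all genes were called (12.4% higher). Of 6 markers of activated stellate cells or myofibroblasts that passed, 5 were higher on HFD in p110αhep+/+ mice in each state (in fasted mice 15.9% of all genes were called and 8.96% were higher), led in fed mice by Postn (0.79 ± 0.13) and Tagln (0.63 ± 0.14), and Acta2, the smooth muscle actin of activated cells, had 0.04 ± 0.08 in fed and 0.38 ± 0.08 in fasted mice. Lox and Spon1 did not pass. Their summed signal ran from 4052 to 5308 in fed p110αhep+/+ mice on CTRL diet, from 5178 to 5997 on HFD and from 4357 to 5673 in fed p110αhep-/- mice on HFD. Of 11 general stellate cell markers, 3 were higher and 0 lower in fed p110αhep+/+ mice on HFD, with summed signals of 44890 to 57210 on CTRL diet and 49500 to 73270 on HFD, and Lrat, which stores vitamin A in these cells, had -0.02 ± 0.15. In p110αhep-/- mice on HFD the stellate sums ran from 59540 to 70810 when fed and from 62610 to 77590 when fasted, and their medians, 65440 and 70810, were above those of p110αhep+/+ mice on HFD, 61120 and 66050. Of 5 portal fibroblast markers 1 was higher and 0 lower, Fbln2 (0.85 ± 0.12), with sums of 1340 to 1987 on CTRL diet, 1773 to 2110 on HFD and 1238 to 1464 in fed p110αhep-/- mice on HFD.

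Markers of other cells also differed between these groups. Of 5 markers of lipid-associated macrophages, 4 were higher on HFD in fed p110αhep+/+ mice, with sums of 2680 to 5130 on CTRL diet and 3386 to 8084 on HFD, and all 5 were lower in fed p110αhep-/- mice on HFD (sum 1553 to 2698), Spp1 by -2.23 ± 0.18. Of 3 adipocyte markers, Cfd was higher on HFD by 1.78 ± 0.61 in fed p110αhep+/+ mice, and lower by -4.11 ± 0.64 in fed p110αhep-/- than p110αhep+/+ mice on HFD, while Adipoq, their defining marker, did not pass the filter. The adipocyte sums were 594 to 10760 in fed p110αhep+/+ mice on CTRL diet, 8828 to 12400 on HFD and 303 to 2160 in fed p110αhep-/- mice on HFD. Of the other lists, in fed p110αhep+/+ mice on HFD, 1 of 9 sinusoidal endothelial markers was higher, 0 of 8 Kupffer cell markers was called, 1 of 5 cholangiocyte markers was higher, 1 of 8 hepatocyte markers was lower, 0 of 2 mesothelial markers was called, 1 of 2 pancreas markers was lower and 2 of 5 blood and lymphocyte markers were lower. In fed p110αhep-/- against p110αhep+/+ mice on HFD, 4 of the 5 cholangiocyte markers were lower, where 32.9% of all genes were called (16.3% lower). The part of these cells in the collagen differences was not tested.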

How the data were processed

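Livers of 48 male mice were profiled on Agilent one-colour arrays, 1 per mouse, in 8 groups of 6 taken from the sample labels. The authors made cyanine 3-labelled cRNA from 200 ng of each total RNA, and read spots with Agilent Feature Extraction 10.10.1.1 (version from the submitters' processing notes). The deposited scanner files give the spot intensity (median of pixels) without normalization. A deposited table holds log2 values of 32437 probes, which the authors filtered, corrected for the washing batch and quantile normalized, and which served as an alternative.

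From the scanner files, log2 median signals were computed for the 59305 of 62976 spots that are not controls. Spots called outliers by the scanner software (92 to 151 on an array) were dropped and repeat spots averaged. The filter kept probes well above background in 5 or more of 6 mice of any group (30793 probes, 20486 genes). The washing batch was removed while protecting group means, and arrays were quantile normalized. All arrays were fitted in limma 3.58.1 (R 4.3.3) with a mean per group and array weights, so a fitted difference can depart from that of plain means. P-values of 12 contrasts and 6 interactions were two-sided with Benjamini-Hochberg adjustment over every probe that passed and a call at 0.05. Controls were littermates of the knockout mice, and which mice shared a litter was not used here. The number of arrays limits the precision. Symbols and mm9 positions come from the scanner files. Correlations used 100000 permutations, two-sided. The fit was tested on simulated data.

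The collagen genes, the lists of other genes and the rule for naming were chosen with earlier results of these data known. Values in all groups are given for collagen genes called in at least 3 contrasts or in an interaction, or for the main liver collagens above background on all arrays. Other lists name at most their 3 largest called changes per contrast, with Serpinh1, Lox, Timp1, Mmp2, Tgfb1, Acta2 and Lrat. 1 gene that this rule names is not reported here. Alternatives were a fold change over 1.5, the median over a gene's probes, the processed signal scaled to the 75th percentile, normexp with an offset of 50, other filters, other treatments of washing batch, slide and replicate number, no array weights, the deposited log2 values and leaving out 1 array of low weight.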

Additional observations from a re-analysis of the deposited data

Results flagged for a closer look

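13 of 168 sets of 6 mice (1 gene in 1 group) held a mouse far from the other 5 by Dixon's criterion, where chance gives about 1 in 20. The high values were Col4a2 at 9.69 in fasted p110αhep-/- mice on HFD (nearest mouse 9.21), Col5a1 at 9.03 in fed p110αhep+/+ mice on HFD, Col6a5 at 6.03 and 7.18 in fed p110αhep+/+ mice on CTRL diet and HFD, Col12a1 at 5.89 in fasted p110αhep-/- mice on CTRL diet, Col14a1 at 8.21 in fed p110αhep-/- mice on CTRL diet, and Col20a1 at 6.4 and 7.08 in fed p110αhep+/+ and p110αhep-/- mice on HFD. The low values were Col4a5 at 5.54 and Col8a1 at 6.32 in fasted p110αhep-/- mice on HFD, and Col16a1 at 8.70 in fed p110αhep-/- mice on CTRL diet, 8.48 in fasted p110αhep+/+ mice on CTRL diet and 8.65 in fasted p110αhep+/+ mice on HFD.

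10 differences between groups in their response were called by the test of the interaction itself. For genotype by diet these were -0.98 for Col1a2, -0.60 for Col5a1 and -0.76 for Col8a1 in fed mice, and -1.32 for Col1a1, -1.02 for Col1a2, -1.08 for Col3a1, -0.79 for Col4a1 and -0.52 for Col12a1 in fasted mice, the last a gene for which the filter on dim probes favoured that sign. For genotype by nutritional state they were -1.0 for Col27a1 on CTRL diet and 1.0 for Col13a1 on HFD. The fasting values of the further Col27a1 probe on CTRL diet had the opposite order between genotypes.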

How the results depend on the processing

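No collagen fold change reversed its direction among the 116 called and described, under 11 alternatives of the processing. The alternative with only probes well above background on all arrays held 106 of them. With a fold change over 1.5 also required, HFD changed 10 and 8 collagen genes in fed and fasted p110αhep+/+ mice and 2 and 0 in p110αhep-/- mice, against 3.76%, 2.81%, 2.32% and 1.89% of all genes. The first of these counts includes Col6a5, with a direction that the filter favoured. Genotype then changed 7 and 10 on HFD (fed and fasted) and 0 and 5 on CTRL diet, against 6.24%, 6.54%, 3.72% and 3.24% of all genes. Fasting changed 4 and 3 in p110αhep+/+ mice (CTRL diet and HFD) and 6 and 8 in p110αhep-/- mice, against 5.45%, 4.71%, 7.07% and 5.9%. The single gene called for HFD in fasted p110αhep-/- mice became 0 with normexp, without the filter on dim probes or without washing correction, and 2 without array weights. The single gene called for genotype in fed mice on CTRL diet became 2 with the median over probes or the slide as a block. The 9 genes called in an interaction became 1 without the filter, where normalization and adjustment ran over more probes, and 3 without array weights. The cause of either loss was not tested. The 3 fed interactions of genotype and diet (Col1a2, Col5a1 and Col8a1) were each lost in these settings and also without washing correction and with the replicate block (adjusted p = 0.0692, 0.0543 and 0.0838). Col4a1 and Col4a2 correlated at 0.315 with the processed signal, 0.310 with normexp and 0.321 with the slide as a block, past the threshold in each. Calls of single fold changes were lost most often without the filter (16), without array weights (10) and with the replicate block (8), and included small differences of Col4a2, Col7a1 and Col18a1. Without fed p110αhep-/- replicate 3 on HFD, 2 were lost, Col4a2 between genotypes in fed mice on HFD and Col7a1 for HFD in fasted p110αhep+/+ mice.

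The replicate numbers did not meet the criterion for pairing, a correlation over 0.1 in every pair. Same-numbered mice of different groups correlated at 0.019 on average (lowest -0.341), and 16 of 48 correlated best with their own number, where 8 would if numbers carried no information, a hint from the data and not the design. With the replicate block, the count for genotype in fed mice on CTRL diet was 2, and 7 genes were called in an interaction.

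With the processed signal, sizes moved by over 1.5 times for Col4a5, Col6a5, Col7a1, Col12a1, Col18a1 and Col20a1. Dim members lie near background, and 19 collagen genes were left out by the filter.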
